A study of Mus musculus with 24 samples.

Results

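The genes described here make up the protein folding machinery of the endoplasmic reticulum (ER), the compartment in which secreted and membrane proteins are folded. They were taken as a list of 40 named genes, and for each gene the brightest probe set that carries a single gene symbol was used. Of the 40 genes, 36 had such a probe set, out of 19661 genes on the arrays, and all 36 passed the filter on low values. Dnajc3, Fkbp10, Sec61b and Sec61g had none and were not analysed here. Only Pdia4 had more than 1 such probe set.

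The cells were mouse fibroblasts grown from 6 embryos (E13.5), 3 with a single intact Eif4e allele (Eif4e+/-, here Het) and 3 wild type (WT). Each embryo gave early passage primary cells and a matched culture transformed with Ras and Myc, so the 12 cultures fell into 4 groups of 3, transformed Het, transformed WT, untransformed Het and untransformed WT. All 12 were grown in 10% serum and harvested in exponential growth, and from each culture total RNA and heavy polysome RNA were hybridised to Mouse Gene 1.0 ST arrays, 24 in all. Eif4e encodes the cap-binding translation initiation factor, and how Ras and Myc were delivered and whether the embryos were littermates are not given in the sources used here. Translational efficiency (TE) is the log2 polysomal value minus the log2 total value of the same culture.

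Array means lay between 7.47 and 7.50 (log2) for total RNA and between 3.78 and 3.79 for polysomal RNA. The fractions thus had separate scales, and only differences in TE between groups can be read. The weakest polysomal array, untransformed WT embryo 1, had an SD over probe sets of 1.15, against 1.25 to 1.44 on the other polysomal arrays. Eif4e itself averaged 9.05 ± 0.19 in transformed Het cells and 9.63 ± 0.20 in transformed WT cells in total RNA (SD, n = 3 each, exact permutation p = 0.1, the smallest that 3 against 3 allow). In untransformed cells Eif4e averaged 8.80 ± 0.10 in Het and 9.10 ± 0.10 in WT cells (exact permutation p = 0.1). On polysomes Het minus WT was -0.53 in transformed and -0.21 in untransformed cells (exact permutation p = 0.4 and 0.2). By limma none of these differences passed, with an adjusted p of 0.20 in transformed total RNA. Of the 10 fibroblast markers, 9 exceeded the 40th percentile of every total RNA array. Of the 8 leukocyte markers Cd68 did so on 12 of 12 total RNA arrays, Laptm5 on 11, Cd53 on 10 and Itgam on 0. Ptprc and Lyz2 exceeded it on 6, Csf1r on 5 and Adgre1 on 2. Of the 6 endothelial markers Eng did so on 12, Emcn on 6, Kdr on 4, Cdh5 on 3, Tek on 1 and Pecam1 on 0. Among the 6 epithelial markers Krt8, Krt18 and Krt5 did so on 12, Krt14 on 8, Cdh1 on 1 and Epcam on 0.

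In the ER lumen, the HSP70 chaperone BiP (Hspa5) and the HSP90 chaperone Grp94 (Hsp90b1) hold unfolded chains, calnexin and calreticulin bind their sugar chains, and protein disulfide isomerases form and reshuffle disulfide bonds. Proteins that fail to fold are returned to the cytosol by ER-associated degradation. When unfolded proteins accumulate, the sensors Ire1 (Ern1), Perk (Eif2ak3) and Atf6 start the unfolded protein response, in which Ire1 splices Xbp1 mRNA and the factors Xbp1 and Atf6 raise transcription of chaperone genes. In fibroblasts much of this machinery serves procollagen, which also needs prolyl isomerases and the collagen chaperone Hsp47 (Serpinh1).

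After transformation with Ras and Myc, most of these genes had lower mRNA levels. In total RNA 26 of the 36 were lower and 1, Ern1, was higher in transformed than in untransformed cells, at a Benjamini-Hochberg adjusted p under 0.05 from limma over 14830 genes. Among all genes tested, 15.8% were lower and 15% were higher. The median log2 difference, transformed minus untransformed, was -0.40 over the 36 genes and 0.03 over all genes. In polysomal RNA 16 of the 36 were lower and 0 were higher, where 4.05% of all genes were lower and 3.67% higher, and the medians were -0.61 and 0.01. In TE 5 of the 36 were lower and 0 were higher, where 0.971% of all genes were lower and 1.81% higher, and the medians were -0.21 and 0.01.

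For most of the genes the direction was shared by the embryos in total RNA and on polysomes, but not in TE. In total RNA 25 of the 36 genes were lower after transformation in all 6 embryos, against 15.4% of all genes. In polysomal RNA 20 of the 36 were, against 6.74% of all genes, and in TE 13 of the 36 were, against 4.42%. Over WT embryos the TE difference was negative for 20 of the 36 genes and positive for 16 (45.4% of all genes were negative). Over Het embryos it was negative for 34 and positive for 2 (51.2% of all genes were negative). These p-values measure the spread between embryos, and in bulk RNA fewer cells of a type and less RNA per cell cannot be told apart. The mean of the fibroblast markers moved with the state as well, at 9.62 to 10.66 in transformed Het and 8.97 to 10.22 in transformed WT cells, against 10.73 to 10.92 in untransformed Het and 10.81 to 11.004 in untransformed WT cells. The mean of the 8 leukocyte markers was also lower, at 6.50 to 6.83 in transformed Het and 6.79 to 7.02 in transformed WT cells, against 7.33 to 7.67 in untransformed Het and 7.46 to 7.66 in untransformed WT cells. That of the 6 endothelial markers was 6.41 to 6.56 in transformed Het and 6.67 to 6.74 in transformed WT cells, against 6.80 to 6.95 in untransformed Het and 6.98 to 7.17 in untransformed WT cells. For the 6 epithelial markers it was 7.71 to 7.81 in transformed Het and 7.31 to 7.98 in transformed WT cells, against 7.19 to 7.37 in untransformed Het and 7.23 to 7.35 in untransformed WT cells. Of 8 genes that mark professional secretory cells 6 were measured, of which Cela1 and Ins2 exceeded the 40th percentile on 12 of 12 arrays and Jchain, Mzb1 and Agr2 on 0. Their mean was higher in transformed cells, at 6.47 to 6.59 in transformed Het and 6.50 to 6.63 in transformed WT cells, against 6.38 to 6.46 in untransformed Het and 6.36 to 6.45 in untransformed WT cells. All of these means lay below the 40th percentile of the total RNA arrays, which was 6.80 to 6.93, as did the endothelial means of transformed cells. Shifts in that low range are not read as a change in cell type. The part of these markers in the results was not tested.

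**Figure D1:**
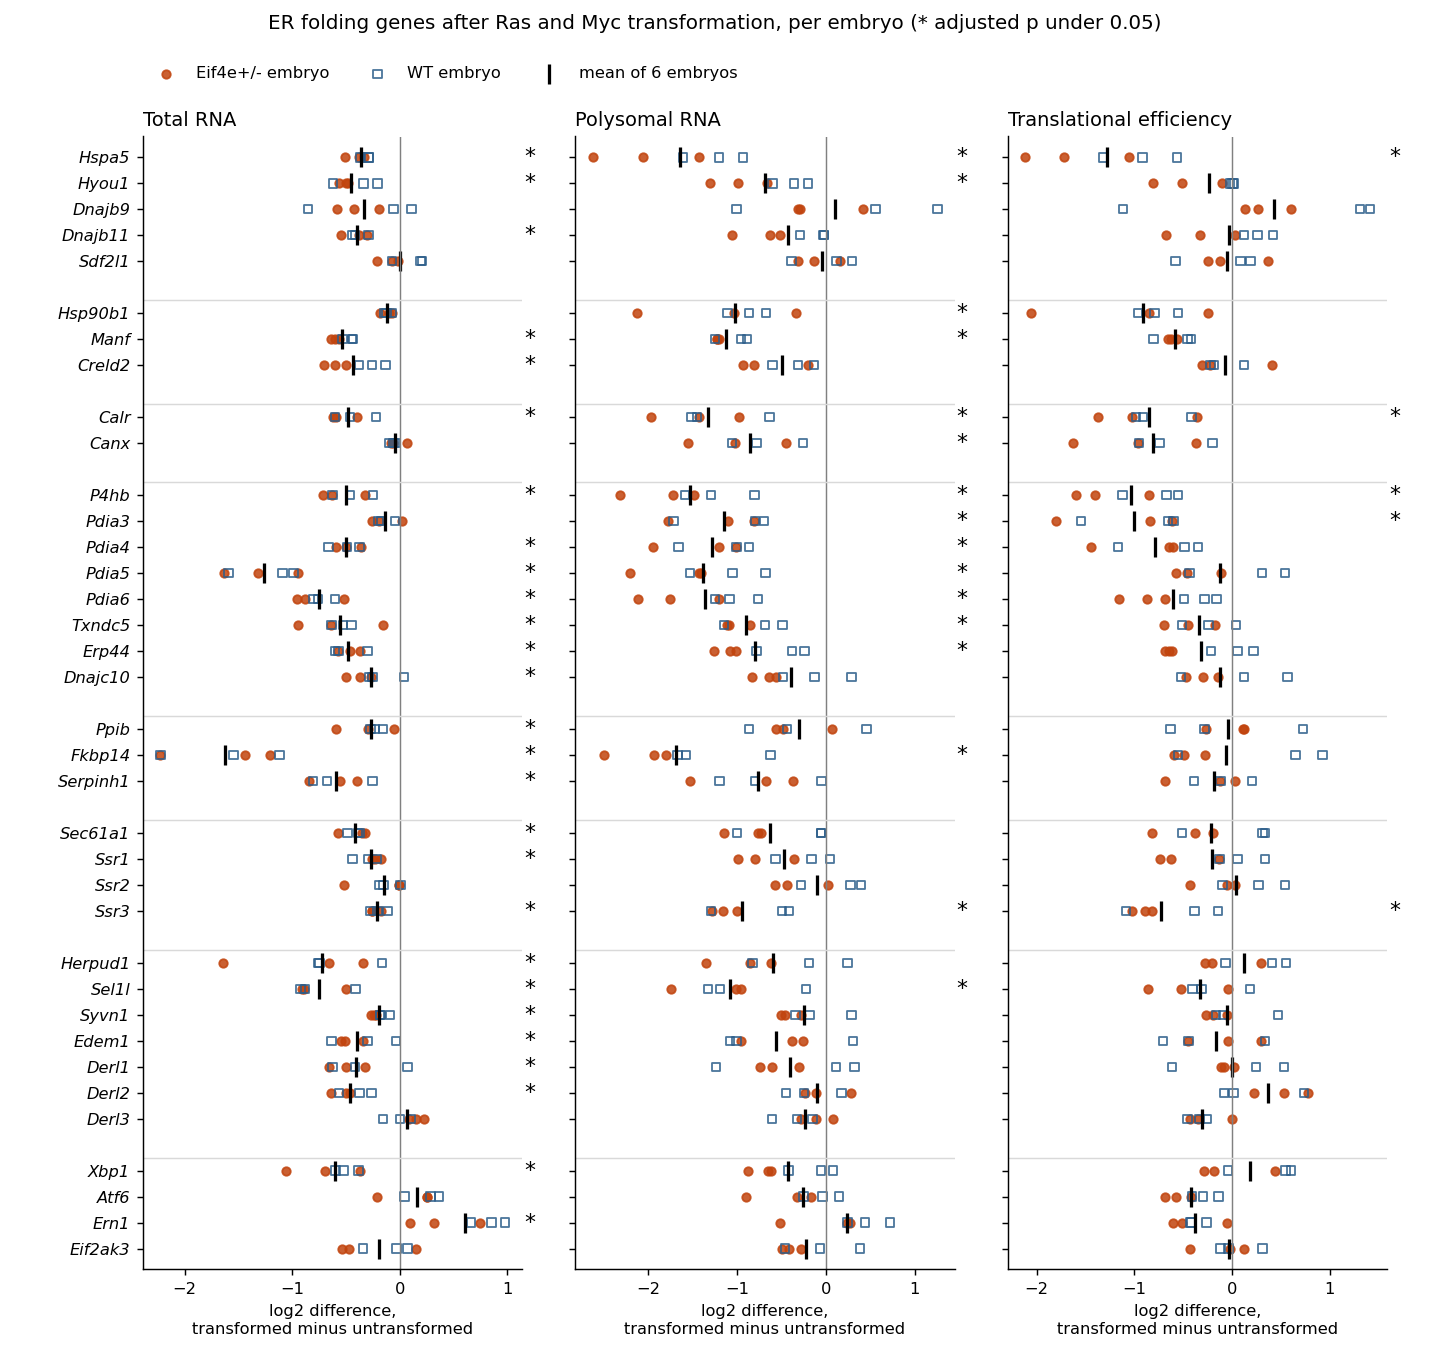
Log2 difference, transformed minus untransformed, of each measured ER folding gene (rows, grouped by role) in total RNA, polysomal RNA and TE. Filled circles are Eif4e+/- embryos, open squares WT embryos, black ticks the mean of 6 embryos, and an asterisk marks an adjusted p under 0.05; 26 genes are lower in total RNA, 16 in polysomal RNA and 5 in TE, and Ern1 is the 1 gene marked as higher.

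Many chaperone promoters carry the ER stress response element (ERSE), a CCAAT box bound by NF-Y set apart from a CCACG box bound by Atf6 or Xbp1. In the RefSeq promoter windows of 300 bases (GRCm38.p6), the letters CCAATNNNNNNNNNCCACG, searched on both strands, occurred in 9 of the 33 listed genes that have a window (27.3%) and in 37 of 27025 genes in all (0.137%). The 9 were Calr, Canx, Creld2, Derl3, Dnajc3, Hsp90b1, Hspa5, Pdia6 and Syvn1. The stretches around the element are shown for the 6 of them with the largest transformation effect in total RNA, with 20 bases on either side, 5′ to 3′ on the strand of the gene and with the fixed letters of the element in capitals.
Pdia6, chr12:17266471-17266529, plus strand: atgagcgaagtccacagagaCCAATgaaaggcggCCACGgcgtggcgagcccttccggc
Calr, chr8:84847055-84847113, minus strand: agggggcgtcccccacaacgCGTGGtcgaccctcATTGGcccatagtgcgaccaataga
Creld2, chr15:88819500-88819558, plus strand: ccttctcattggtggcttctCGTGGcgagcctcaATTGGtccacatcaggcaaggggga
Hspa5, chr2:34772005-34772063, plus strand: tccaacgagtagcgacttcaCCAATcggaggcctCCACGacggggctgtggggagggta
Syvn1, chr19:6046512-6046570, plus strand: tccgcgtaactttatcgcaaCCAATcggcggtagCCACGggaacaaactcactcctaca
Hsp90b1, chr10:86705513-86705676, minus strand: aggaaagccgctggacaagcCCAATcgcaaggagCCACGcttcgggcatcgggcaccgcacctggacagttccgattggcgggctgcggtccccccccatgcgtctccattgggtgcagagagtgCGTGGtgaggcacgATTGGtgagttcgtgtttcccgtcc

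The element read forward in Pdia6, Hspa5 and Syvn1 and in reverse in Calr and Creld2, and Hsp90b1 held 1 copy in each direction. Counted from the start site, its first base lay at -65 in Hspa5 and at -98 in Pdia6. The related letters ATTGGNCCACG (ERSE-II), also on both strands, were found in Dnajb11 and Herpud1, 6.06% of the listed genes with a window and 0.0444% of all genes. The letters TGACGTGG, the core of the unfolded protein response element, were found in Txndc5, 3.03% of the listed genes and 0.714% of all. A match of letters is a description and shows no binding.

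Among the measured genes with a window, 8 held the ERSE and 22 did not. In total RNA 5 of the 8 were lower after transformation, with a median of -0.28, and 17 of the 22 were lower and 1 higher, with a median of -0.43. Of all genes 15.8% were lower and 15% higher there. In polysomal RNA 5 of the 8 and 9 of the 22 were lower (4.05% of all genes), with medians of -0.94 and -0.58. In TE 2 of the 8 and 3 of the 22 were lower (0.971% of all genes), with medians of -0.71 and -0.15. The ranges of both sets overlapped in all 3 measures, and in TE they ran from -1.28 to -0.05 with the element and from -1.03 to 0.43 without it. Of the 8, Hspa5, Hsp90b1, Calr, Canx and Pdia6 had mean total RNA values of 11.09 to 12.93, and Creld2, Syvn1 and Derl3 of 7.05 to 10.06. Among measured genes outside the 8, only P4hb, Pdia3, Ssr2 and Ssr3 exceeded 11. The part of signal level in the TE medians was not tested.

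BiP, the central chaperone of the ER, fell modestly in total RNA and strongly on polysomes. Hspa5 had total RNA values of 11.64, 11.71 and 11.52 in transformed Het cells (embryos 1, 2 and 3, as in all lists that follow) and 11.71, 11.56 and 11.83 in transformed WT cells, against 12.02, 12.04 and 12.02 in untransformed Het cells and 12.0003, 11.93 and 12.11 in untransformed WT cells. Every transformed culture lay below every untransformed one, by a mean of -0.36 ± 0.05 (log2 difference and SE, 6 embryos, adjusted p = 0.00269), a level 0.78 of that in untransformed cells. On polysomes Hspa5 had 7.07, 6.34 and 5.95 in transformed Het and 6.83, 6.86 and 6.34 in transformed WT cells, against 8.50, 8.39 and 8.57 in untransformed Het and 8.44, 7.79 and 7.55 in untransformed WT cells. The states again did not overlap, the transformed Het cells of embryo 3 were the lowest, and the difference was -1.64 ± 0.18 (adjusted p = 0.00242), 0.321 of the untransformed value. The TE of Hspa5 was -4.57, -5.37 and -5.57 in transformed Het and -4.88, -4.70 and -5.48 in transformed WT cells, against -3.52, -3.64 and -3.45 in untransformed Het and -3.56, -4.13 and -4.57 in untransformed WT cells. It was lower after transformation in all 6 embryos, by -1.28 ± 0.18 (adjusted p = 0.00851), and this was the largest TE fall among the 36 genes.

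Among the partners of BiP, Hyou1 and Dnajb11 fell in total RNA and Hyou1 fell on polysomes. Hyou1, which exchanges the nucleotide of BiP, fell by 0.45 on the log2 scale in total RNA and by 0.69 on polysomes (adjusted p = 0.00315 and 0.022). Dnajb11, a J-domain co-chaperone that hands clients to BiP, fell by 0.40 in total RNA (adjusted p = 0.00275), and its polysomal difference of -0.42 did not pass. Dnajb9, the J protein that turns BiP against Ire1, had differences of -0.33, 0.10 and 0.43 in total RNA, polysomal RNA and TE, and none passed. Sdf2l1, a partner of Dnajb11, had -0.04 on polysomes and 0.01 in total RNA and did not pass in either. In the HSP70 group as a whole 3 of 5 measured genes were lower in total RNA and 2 of 5 on polysomes (15.8% and 4.05% of all genes).

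Of the other soluble chaperones, Manf and Creld2 were lower in total RNA and Manf and Hsp90b1 on polysomes. Manf, a small cysteine-rich protein that binds BiP, ranged in total RNA from 9.20 to 9.38 with a median of 9.24 in transformed cells and from 9.69 to 9.95 with a median of 9.79 in untransformed cells. The groups did not overlap, and the differences were -0.54 ± 0.05 in total RNA (adjusted p = 0.000541, the smallest of the 36 genes) and -1.12 ± 0.12 on polysomes (adjusted p = 0.002). Creld2, a secreted ER stress protein with epidermal growth factor repeats, fell by 0.43 in total RNA (adjusted p = 0.00227), while its polysomal difference of -0.50 did not pass. Hsp90b1, the ER member of the HSP90 family, was nearly level in total RNA at -0.11 ± 0.05 (adjusted p = 0.114), but its polysomal value fell by 1.02 (SE 0.22, adjusted p = 0.0299).

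Both lectin chaperones were lower on polysomes. Calr, the soluble lectin calreticulin, ranged in total RNA from 11.12 to 11.55 with a median of 11.24 in transformed and from 11.73 to 11.82 with a median of 11.76 in untransformed cells, without overlap. It fell by 0.48 in total RNA, by 1.33 on polysomes and by 0.84 in TE (adjusted p = 0.00272, 0.00611 and 0.0365). Canx, its membrane-bound relative, was not called in total RNA at -0.045 ± 0.05 (adjusted p = 0.534) and fell by 0.85 ± 0.18 on polysomes (adjusted p = 0.0279). The polysomal values of Canx overlapped between the states, at 7.90 to 9.29 in transformed and 8.95 to 10.07 in untransformed cells, although each of the 6 embryos was lower after transformation.

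Most disulfide isomerases were lower in both fractions. Of the 8, 7 were lower in total RNA and 7 on polysomes (15.8% and 4.05% of all genes), and Pdia3 in total RNA and Dnajc10 on polysomes did not pass. Pdia5, a less studied isomerase of the family, had total RNA values of 9.10, 9.43 and 8.79 in transformed Het and 8.93, 9.17 and 9.60 in transformed WT cells, against 10.42, 10.38 and 10.42 in untransformed Het and 10.52, 10.26 and 10.59 in untransformed WT cells. The states were well apart, and the difference was -1.26 ± 0.11 (adjusted p = 0.000591), 0.417 of the untransformed level. On polysomes Pdia5 was lower by 1.38 ± 0.17. Pdia6, an isomerase that also binds BiP and Ire1, had 10.40, 11.03 and 10.59 in transformed Het and 10.60, 10.69 and 10.95 in transformed WT cells, against 11.28, 11.55 and 11.55 in untransformed Het and 11.40, 11.45 and 11.55 in untransformed WT cells. The states did not overlap there either, with a difference of -0.75 ± 0.07 in total RNA (adjusted p = 0.000739) and of -1.36 ± 0.15 on polysomes.

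P4hb, the founding protein disulfide isomerase and also the second subunit of collagen prolyl 4-hydroxylase, fell in total RNA, on polysomes and in TE. On polysomes it had 7.26, 7.14 and 6.81 in transformed Het and 7.19, 7.50 and 6.90 in transformed WT cells, against 8.74, 8.86 and 9.12 in untransformed Het and 8.77, 8.80 and 7.70 in untransformed WT cells. All transformed cultures were below all untransformed ones, and the nearest approach was transformed WT embryo 2 to untransformed WT embryo 3. The polysomal difference of -1.53 ± 0.16 (adjusted p = 0.00207) stood beside -0.50 ± 0.08 in total RNA (adjusted p = 0.00381). TE values of P4hb were -4.09, -4.57 and -4.51 in transformed Het and -4.30, -3.92 and -4.92 in transformed WT cells, against -3.24, -3.17 and -2.91 in untransformed Het and -3.18, -3.25 and -4.37 in untransformed WT cells. They overlapped between the states because of the untransformed WT cells of embryo 3, yet each embryo was lower after transformation, by a mean of -1.03 ± 0.16 (adjusted p = 0.012).

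Pdia3, the isomerase that works with calnexin and calreticulin on glycoproteins, was not called in total RNA at -0.14 ± 0.06 (adjusted p = 0.113). Its TE was -3.93, -4.00 and -4.57 in transformed Het and -3.82, -3.52 and -5.27 in transformed WT cells, against -3.32, -3.17 and -2.77 in untransformed Het and -3.23, -2.86 and -3.72 in untransformed WT cells. Only the transformed WT cells of embryo 2 reached into the untransformed range, and the differences were -1.15 ± 0.19 on polysomes (adjusted p = 0.0117) and -1.01 ± 0.20 in TE (adjusted p = 0.0354). Pdia4, a large isomerase with an additional thioredoxin domain, fell by 0.50 in total RNA and by 1.28 on polysomes. Txndc5, another thioredoxin-domain isomerase, fell by 0.56 and 0.90, and Erp44, which retains client proteins through mixed disulfides, by 0.48 and 0.79. Dnajc10, the ER reductase that combines a J domain with thioredoxin domains, fell by 0.27 in total RNA (adjusted p = 0.0205). The Pdia4 values are those of the brighter of its 2 probe sets, and those of the other are not given here. With the probe sets of each gene averaged, 25 of the 36 genes were lower in total RNA, against 26, and 16 on polysomes as before.

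The 3 measured of the 4 listed collagen-directed folding factors were lower in total RNA (15.8% of all genes), and Fkbp14 had the largest fall of the whole set. On polysomes 1 of the 3 was lower and in TE 0 were (4.05% and 0.971% of all genes). Fkbp14, a prolyl isomerase needed for collagen folding, had 8.12, 8.85 and 7.53 in transformed Het and 8.18, 7.76 and 9.05 in transformed WT cells, against 9.55, 10.05 and 9.76 in untransformed Het and 9.72, 9.98 and 10.17 in untransformed WT cells. The spread was wider among the transformed cultures, but none reached the lowest untransformed value, and the difference was -1.63 ± 0.18 (adjusted p = 0.00112), 0.324 of the untransformed level. On polysomes Fkbp14 had 3.60, 3.77 and 3.05 in transformed Het and 3.63, 3.78 and 3.22 in transformed WT cells, against 5.53, 5.57 and 5.55 in untransformed Het and 4.25, 5.35 and 4.89 in untransformed WT cells. The polysomal difference was -1.68 ± 0.18 (adjusted p = 0.00212), and the TE difference of -0.06 did not pass. The transformed polysomal value was below the 40th percentile of its array for Het embryo 3 (3.05 against 3.21) and WT embryo 3 (3.22 against 3.25). Values this low can understate a fall, so an unchanged TE of Fkbp14 is not shown.

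Serpinh1, which encodes the procollagen chaperone Hsp47, had total RNA values of 9.66, 9.72 and 9.62 in transformed Het and 9.61, 9.54 and 9.98 in transformed WT cells, against 10.21, 10.11 and 10.46 in untransformed Het and 10.28, 10.34 and 10.24 in untransformed WT cells. The states did not overlap, with a difference of -0.59 ± 0.09 (adjusted p = 0.00424). Its polysomal values were 6.83, 6.56 and 6.47 in transformed Het and 6.46, 6.25 and 6.50 in transformed WT cells, against 7.50, 6.93 and 7.99 in untransformed Het and 7.26, 7.45 and 6.55 in untransformed WT cells, and the difference of -0.77 ± 0.20 did not pass (adjusted p = 0.061). Ppib, the ER cyclophilin, fell by 0.27 in total RNA (adjusted p = 0.0368), and its polysomal difference was -0.30.

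**Figure D2:**
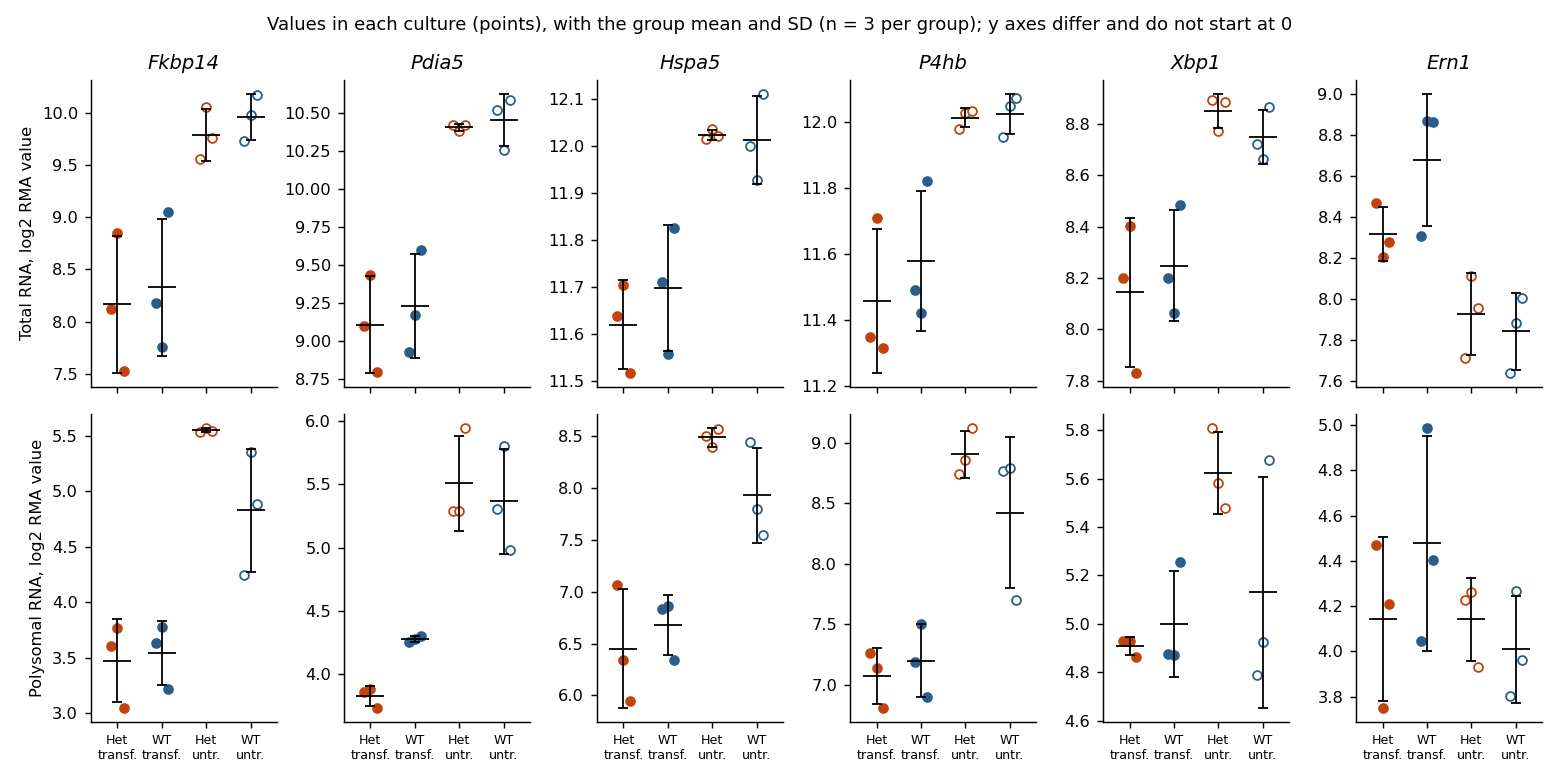
Log2 RMA values of 6 ER folding genes in each culture (points), with the group mean and SD (n = 3 per group), in total RNA (upper row) and polysomal RNA (lower row); groups are transformed Het, transformed WT, untransformed Het and untransformed WT. The transformed cultures lie below the untransformed ones for Fkbp14, Pdia5, Hspa5 and P4hb in both fractions and for Xbp1 in total RNA, and above them for Ern1 in total RNA.

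At the entry gate of the ER, 3 of the 4 measured subunits of the translocon and its associated TRAP complex were lower in total RNA (15.8% of all genes). Ssr3 was also lower on polysomes and in TE (4.05% and 0.971% of all genes). Sec61a1, the pore of the translocon, fell by 0.41 in total RNA (adjusted p = 0.00239), and its polysomal difference of -0.62 did not pass. Of the TRAP subunits, Ssr1 fell by 0.27 in total RNA (adjusted p = 0.00921), and Ssr2 at -0.14 did not pass. Ssr3 fell by 0.21 in total RNA, by 0.94 on polysomes and by 0.73 in TE (adjusted p = 0.0174, 0.0112 and 0.0479). Its TE overlapped between the states, at -5.49 to -4.46 in transformed and -4.76 to -4.05 in untransformed cells, and was lower in each of the 6 embryos.

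In ER-associated degradation 6 of 7 genes were lower in total RNA (15.8% of all genes) and 1, Sel1l, on polysomes (4.05%). Sel1l, the scaffold of the ubiquitin ligase complex, had 9.28, 9.75 and 9.30 in transformed Het and 9.32, 9.39 and 9.88 in transformed WT cells, against 10.20, 10.25 and 10.19 in untransformed Het and 10.25, 10.27 and 10.29 in untransformed WT cells. The untransformed cultures lay within a narrow band above all transformed ones, and the difference was -0.75 ± 0.09 in total RNA (adjusted p = 0.00176) and -1.08 ± 0.19 on polysomes (adjusted p = 0.0147). Herpud1, a membrane component induced by ER stress, had 8.73, 8.52 and 7.75 in transformed Het and 8.57, 7.98 and 8.93 in transformed WT cells, against 9.38, 8.87 and 9.40 in untransformed Het and 9.31, 8.74 and 9.09 in untransformed WT cells. Here the states overlapped, the 6 embryos all fell, and the difference was -0.72 ± 0.17 (adjusted p = 0.021).

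Of the remaining degradation genes, Syvn1, Edem1, Derl1 and Derl2 passed in total RNA and not on polysomes, and Derl3 passed in neither. The ligase Syvn1 fell by 0.20, the mannosidase-like Edem1 by 0.39, and the Derlin channel subunits Derl1 and Derl2 by 0.41 and 0.47 (adjusted p = 0.0194, 0.0131, 0.0205 and 0.00196). Derl2 had a TE difference of 0.37, Derl3 had differences of 0.07 in total RNA and -0.23 on polysomes, and none of these passed. Derl3 had total RNA values of 6.87 to 7.19 in transformed and 6.88 to 7.19 in untransformed cells.

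None of the 3 stress sensors was called lower, but with 15.8% of all genes lower in total RNA, 3 genes are too few to set them apart. Ern1, the Ire1 kinase and endonuclease, had total RNA values of 8.47, 8.21 and 8.28 in transformed Het and 8.31, 8.87 and 8.86 in transformed WT cells, against 7.71, 8.11 and 7.96 in untransformed Het and 7.64, 7.89 and 8.01 in untransformed WT cells. All transformed cultures were above all untransformed ones, by 0.61 ± 0.09 (adjusted p = 0.00372), 1.53 times the untransformed level, and the polysomal difference of 0.23 did not pass. Atf6, the factor released by cleavage in the Golgi, had a difference of 0.17 and Eif2ak3, the Perk kinase, of -0.19, and neither passed. Xbp1, the factor made from the mRNA that Ire1 splices, had 8.20, 8.40 and 7.83 in transformed Het and 8.20, 8.06 and 8.48 in transformed WT cells, against 8.89, 8.77 and 8.89 in untransformed Het and 8.72, 8.66 and 8.87 in untransformed WT cells. The states did not overlap and the difference was -0.60 ± 0.09 (adjusted p = 0.00368), which counts spliced and unspliced mRNA together. On polysomes Xbp1 had 4.93, 4.93 and 4.86 in transformed Het and 4.87, 4.87 and 5.25 in transformed WT cells, against 5.81, 5.58 and 5.48 in untransformed Het and 4.79, 4.92 and 5.67 in untransformed WT cells, a difference of -0.42 ± 0.13 that did not pass (adjusted p = 0.088).

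The genes were sorted by the fraction in which they passed the test. In both fractions 13 genes were called lower, Hspa5, Hyou1, Manf, Calr, P4hb, Pdia4, Pdia5, Pdia6, Txndc5, Erp44, Fkbp14, Ssr3 and Sel1l. Called in total RNA and not on polysomes were 13 others, Dnajb11, Creld2, Dnajc10, Ppib, Serpinh1, Sec61a1, Ssr1, Herpud1, Syvn1, Edem1, Derl1, Derl2 and Xbp1. Called on polysomes and not in total RNA were Hsp90b1, Canx and Pdia3, and 7 genes were called lower in neither. Of all genes, 15.8% were lower in total RNA and 4.05% on polysomes, and their split into these classes is not given here. A call in 1 fraction does not show that the fractions differ, which the TE test addresses. Of these 16 genes, TE passed for Pdia3. Serpinh1, for example, had -0.77 on polysomes and -0.59 in total RNA, and Hsp90b1 was lower in total RNA in 6 of 6 embryos. The polysomal difference was the more negative for 31 of the 36 genes, and for 48.6% of all genes. Both fractions of a culture share their cells, and TE shares its arrays with both.

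**Figure D3:**
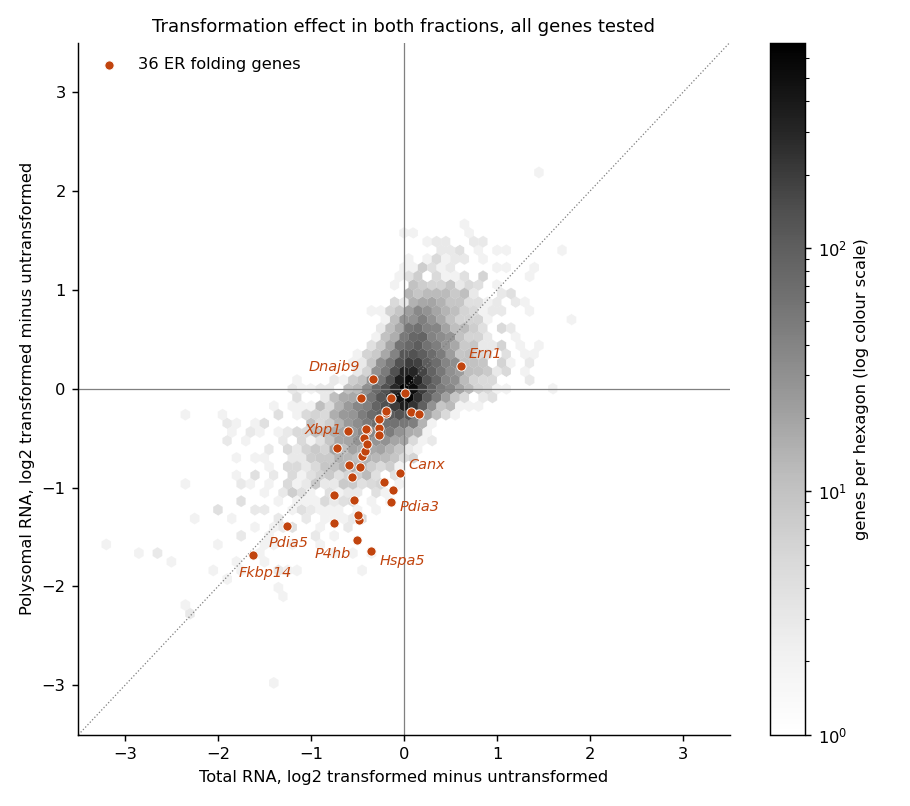
Transformation effect (log2 difference, transformed minus untransformed, mean of 6 embryos) in total RNA (x axis) and polysomal RNA (y axis) for all genes tested (grey hexagons, shaded by the number of genes on a log scale) and for the 36 ER folding genes (orange points). The dotted line marks equal change; 31 of the 36 points lie below it, with Hspa5, P4hb, Pdia3 and Canx among those farthest below.

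The 5 genes with lower TE, Hspa5, P4hb, Pdia3, Calr and Ssr3, all had bright probe sets on the total RNA arrays, a signal that reflects the probes as well as the mRNA. Over genes with a mean total RNA value of 11 to 12, 4 of the 6 ER folding genes were lower in TE with a median of -0.93, against 3.14% of all 606 genes with a median of 0.00. From 12 upward 1 of 3 was, with a median of -0.81, against 8.2% of all 122 genes with a median of 0.00. Hsp90b1 at -0.91 (adjusted p = 0.071) and Canx at -0.81 (adjusted p = 0.063) missed the threshold there. At values of 10 to 11 the 8 ER folding genes had a TE median of -0.16 and 0 were called, against 0.549% of all 1456 genes. A compressed scale of bright probe sets on the total RNA arrays was not tested.

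The number of TE calls changed when an embryo was left out. Leaving out Het embryo 2 or Het embryo 3 left 0 genes called in TE, leaving out WT embryo 1 or 2 left 2, and leaving out Het embryo 1 left 3. Without WT embryo 3 the count rose to 11, of which 10 were lower and 1 higher. In polysomal RNA the lowest count was 8, without Het embryo 3. Dropping each embryo in turn gave 22 to 27 calls in total RNA. These fits hold fewer cultures, and the share of all genes called in them is not given here. Whether the counts moved through the smaller number of cultures was not tested.

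**Figure D4:**
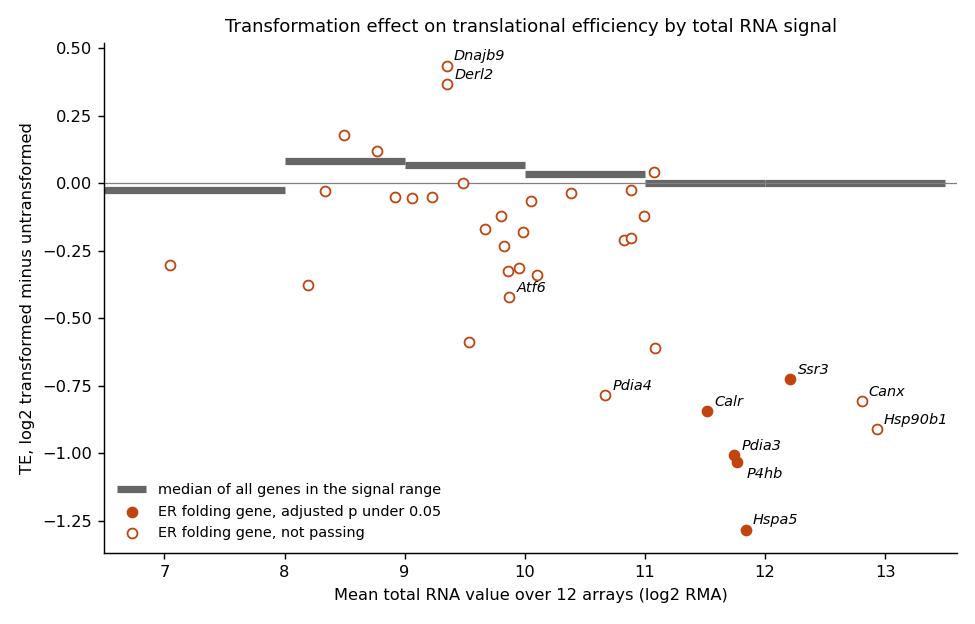
Transformation effect on TE (log2 difference, transformed minus untransformed) against the mean total RNA value over 12 arrays (log2 RMA) for the 36 ER folding genes, filled where the adjusted p was under 0.05; grey bars are medians of all genes tested in each range of values. The genes at total RNA values above 11 include all 5 called in TE, while the medians of all genes stay near 0.

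Each genotype was then taken alone. In Het cells 20 of the 36 genes were lower after transformation in total RNA (8.58% of all genes), 12 on polysomes (1.31%) and 1, Hspa5 at -1.63 ± 0.25, in TE (0.0944%, adjusted p = 0.0448). In WT cells 18 were lower (9.08%) and Ern1 was higher (7.62%) in total RNA, 1, Manf at -1.03 ± 0.17, was lower on polysomes (0.904%, adjusted p = 0.0298), and 0 were lower in TE (0.196%). In TE of WT cells 9 of the 36 genes had an unadjusted p under 0.05, as had 10.03% of all genes. The negative differences with the smallest p were Hspa5 at -0.93 ± 0.25 and P4hb at -0.78 ± 0.22 (adjusted p = 0.213 and 0.237), Pdia3 stood at -0.93 ± 0.29 (adjusted p = 0.288), and the positive differences with the smallest p were Xbp1 at 0.37 and Herpud1 at 0.30, none of which passed.

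The called genes in Het total RNA were Hspa5, Hyou1, Dnajb11, Manf, Creld2, Calr, P4hb, Pdia4, Pdia5, Pdia6, Txndc5, Erp44, Dnajc10, Fkbp14, Serpinh1, Sec61a1, Sel1l, Edem1, Derl2 and Xbp1, from -0.38 for Dnajc10 to -1.62 for Fkbp14. On Het polysomes they were Hspa5, Hyou1, Manf, Calr, P4hb, Pdia4, Pdia5, Pdia6, Txndc5, Erp44, Fkbp14 and Ssr3, from -0.99 for Hyou1 to -2.08 for Fkbp14. In WT total RNA they were Hspa5, Hyou1, Dnajb11, Manf, Calr, P4hb, Pdia4, Pdia5, Pdia6, Txndc5, Erp44, Fkbp14, Serpinh1, Sec61a1, Ssr1, Sel1l, Derl2 and Xbp1, from -0.31 for Hspa5 to -1.63 for Fkbp14, with Ern1 at 0.84.

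The difference between the genotypes in their response was tested directly and called 0 of the 36 genes and 0% of all genes in each measure, with 2, 3 and 1 of the 36 at an unadjusted p under 0.05 in total RNA, polysomal RNA and TE, where 4.88%, 2.12% and 1.95% of all genes were. A larger response of Het cells is therefore not shown, although the median of this difference was -0.09 in total RNA, -0.34 on polysomes and -0.28 in TE, against 0.01, -0.02 and -0.05 for all genes. In total RNA Creld2 had the smallest p, with -0.35 ± 0.11 (adjusted p = 0.916), then Ern1 with -0.44, and on the positive side Derl3 with 0.17 and Ssr1 with 0.10. On polysomes Erp44 had -0.65 ± 0.26 and Dnajb11 -0.62, with Derl3 at 0.26 and Derl2 at 0.15. In TE Erp44 had -0.67 ± 0.26 and Pdia6 -0.60, with Derl2 at 0.29 and Edem1 at 0.21, and none of these passed.

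These counts per genotype rest on 3 embryos each and moved when an embryo was left out, in fits with fewer cultures. Without Het embryo 1 or 3 the count in Het total RNA was 4 or 2, and without any of the Het embryos 0 were called on Het polysomes and in Het TE. In the other direction, leaving out WT embryo 3 gave 23 on Het polysomes, 7 in Het TE and 11 on WT polysomes, while leaving out WT embryo 1 gave 7 on Het polysomes, and leaving out WT embryo 2 gave 0 in Het TE. The total RNA count of WT cells, with 1 higher gene included each time, was 5 when WT embryo 1 was dropped, 8 for WT embryo 2 and 12 for Het embryo 1. On WT polysomes the count was 0 without any 1 embryo other than WT embryo 3. In WT TE 1 gene was called without WT embryo 3, and it was higher, not lower.

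Eif4e genotype itself gave no called ER folding gene in either state or any measure. Of all genes 0.0472% were called in total RNA of transformed cells and 0% in the other comparisons. In untransformed cells the ER folding genes had mostly positive differences in the polysomal measures. Het minus WT was above 0 for 32 of the 36 on polysomes and 33 of the 36 in TE. It was below 0 for the other 4 and 3, and for 47.03% and 43.7% of all genes, with medians of 0.25 and 0.28 against 0.02 and 0.03 for all genes. In total RNA of the same cells the median was -0.01. In transformed cells the medians were -0.10 in total RNA, -0.07 on polysomes and 0.01 in TE, and 32 of the 36 total RNA differences were negative, as were 46% of all genes' differences.

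The cultures behind these differences overlapped. The median polysomal value of the 36 genes was 6.58, 6.45 and 6.34 in untransformed Het cells, against 5.99, 6.62 and 5.91 in untransformed WT cells. The highest of the 6 cultures was thus WT embryo 2, and the lowest were WT embryos 1 and 3. The median difference between the genotypes on polysomes was 0.13 when WT embryo 3 was left out. It was 0.21 without WT embryo 1, whose array was the weakest, and 0.44 when WT embryo 2 was dropped. With arrays weighted by their precision it was 0.09.

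In the untransformed polysomal comparison Fkbp14 had the smallest p. Its values were 5.53, 5.57 and 5.55 in Het and 4.25, 5.35 and 4.89 in WT cells, which did not overlap, and the difference was 0.72 ± 0.27 (limma unadjusted p = 0.0208, adjusted p = 1). Erp44 had 5.14, 4.99 and 4.87 in Het and 4.04, 4.96 and 4.02 in WT cells, overlapping through WT embryo 2, a difference of 0.66 ± 0.25. Hyou1, Pdia6 and Xbp1 made up the 5 genes at an unadjusted p under 0.05 (1.67% of all genes), at 0.49, 0.64 and 0.49. The negative differences with the smallest p were Derl3 at -0.09 and Edem1 at -0.11.

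In TE of untransformed cells Erp44 led, with -5.01, -5.25 and -5.18 in Het and -6.22, -5.22 and -6.24 in WT cells, a difference of 0.74 ± 0.27 (limma unadjusted p = 0.0159, adjusted p = 1). WT embryo 2 lay among the Het values. Pdia6 followed at 0.65 ± 0.26, Fkbp14 was the third of 3 genes at an unadjusted p under 0.05 (1.45% of all genes), and the negative differences with the smallest p were Edem1 at -0.16 and Eif2ak3 at -0.06. In total RNA of untransformed cells Derl3 had the smallest p, with 6.93, 6.88 and 7.05 in Het and 7.19, 7.002 and 7.02 in WT cells, overlapping groups with a difference of -0.12 ± 0.09. Pdia3 at -0.09, Manf at 0.08 and Sec61a1 at 0.07 came next, with 0 of the 36 at an unadjusted p under 0.05 (2.37% of all genes).

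Transformed cells gave Creld2 as the leading gene in total RNA. It had 9.58, 9.85 and 9.57 in transformed Het and 10.10, 9.81 and 10.15 in transformed WT cells, against 10.29, 10.35 and 10.17 in untransformed Het and 10.23, 10.19 and 10.40 in untransformed WT cells. Transformed Het and WT cells overlapped through Het embryo 2 and WT embryo 2, and the difference was -0.35 ± 0.11 (limma unadjusted p = 0.00936, adjusted p = 0.383). Ern1 at -0.36 was the other of 2 genes under 0.05 unadjusted (9.3% of all genes), and Ssr1 and Sec61a1 at 0.07 and 0.06 had the smallest p among positive differences.

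On polysomes of transformed cells Pdia5 had 3.86, 3.89 and 3.74 in Het and 4.25, 4.28 and 4.30 in WT cells. These did not overlap, and the difference of -0.45 ± 0.23 did not pass (limma unadjusted p = 0.0678). Eif2ak3 at -0.42, Ppib at 0.31 and Txndc5 at 0.17 came next, with 0 of the 36 under 0.05 unadjusted (3.22% of all genes). In TE of transformed cells Creld2 had -4.02, -4.18 and -3.54 in Het and -4.38, -3.93 and -4.34 in WT cells, a difference of 0.30 ± 0.23 between overlapping groups. Ppib at 0.41, Pdia5 at -0.33 and Eif2ak3 at -0.22 followed, and again 0 of the 36 were under 0.05 unadjusted (2.9% of all genes).

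The Erp44 difference between genotypes did not pass in either state. Its polysomal values in transformed cells were 4.06, 3.98 and 3.61 in Het and 3.66, 4.17 and 3.78 in WT cells, and its TE there was -5.63, -5.90 and -5.87 in Het and -6.00, -5.43 and -6.18 in WT cells. In both measures the genotypes overlapped in transformed cells.

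**Figure D5:**
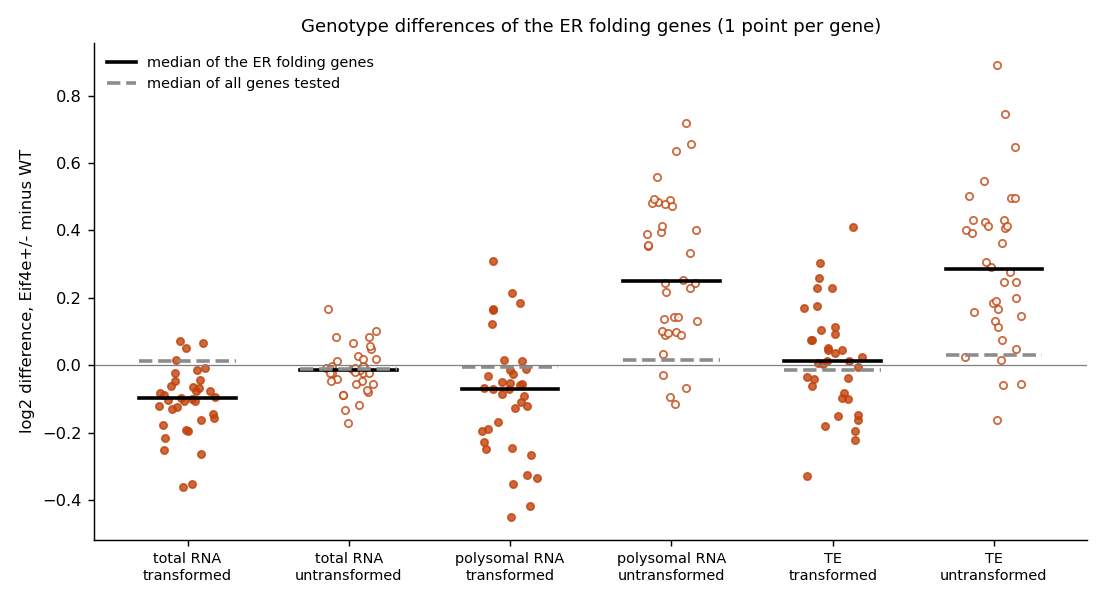
Log2 difference, Eif4e+/- minus WT, of the 36 ER folding genes (1 point per gene) in total RNA, polysomal RNA and TE, in transformed cells (filled) and untransformed cells (open); black bars are medians of the 36 genes and dashed grey bars medians of all genes tested. The medians are 0.25 and 0.28 in polysomal RNA and TE of untransformed cells and between -0.10 and 0.01 elsewhere, and no point passed the test.

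Other lists of the secretory pathway were counted against all genes, of which 15.8% were lower and 15% higher in total RNA and 4.05% lower and 3.67% higher on polysomes. Of 20 tested genes of COPII coats and ER exit 13 were lower and 0 higher after transformation in total RNA (median -0.34), and 8 were lower on polysomes. The cargo receptor Kdelr3, which returns ER proteins from the Golgi, had differences of -1.86 in total RNA and -2.20 on polysomes, and Sec23a, an inner coat subunit, of -1.23 and -1.70. Of 15 collagen hydroxylation and folding genes 11 were lower in total RNA (median -0.59) and 6 on polysomes. P4ha3, a catalytic subunit of prolyl 4-hydroxylase that partners P4hb, had differences of -2.87 in total RNA and -1.64 on polysomes. Its TE was 1.22 ± 0.18 higher in transformed cells (adjusted p = 0.00974), opposite to that of P4hb, and higher in 6 of 6 embryos. The polysomal level of P4ha3 is not given here, and whether low values understated its polysomal fall was not tested. Plod1, a lysyl hydroxylase, fell by 1.24 in total RNA and had a polysomal difference of -0.71 that did not pass.

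In N-glycosylation and the calnexin cycle 9 of 16 genes were lower in total RNA and 5 on polysomes. Dpagt1, which starts the lipid-linked oligosaccharide, fell by 0.78 and 0.64, and Ostc, an oligosaccharyltransferase subunit, by 0.50 and 1.12. In the rest of the translocon, signal recognition and signal peptidase list 9 of 18 genes were lower in total RNA, and 2 were lower and 1 higher on polysomes, with Tram2 at -1.29 in total RNA and -1.85 on polysomes and the signal peptidase subunit Spcs3 at -0.34 in total RNA.

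Of the other degradation genes 8 of 16 were lower and 1 higher in total RNA and 1 was lower on polysomes. Selenos, a selenoprotein of the retrotranslocation complex, fell by 0.89 in total RNA and 1.15 on polysomes, and Edem3 fell by 0.47 in total RNA. In oxidative folding 5 of 13 genes were lower and 1 higher in total RNA (15.8% and 15% of all genes) and 1 was lower on polysomes (4.05%). The sulfhydryl oxidase Qsox1 had differences of -1.18 and -1.69, and Erp29 fell by 0.46 in total RNA. In the Perk and Atf4 arm of the stress response 3 of 12 genes were lower and 1 higher in total RNA (15.8% and 15% of all genes), and 1 was lower and 2 higher on polysomes (4.05% and 3.67%). Its largest falls were Nupr1, a stress-induced chromatin factor, at -0.97 and Ddit3, the factor Chop, at -0.46 in total RNA. None of the 7 lists had a gene called for genotype by any measure in either state.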

How the data were processed

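The authors deposited RMA values on the log2 scale, per the series description and the submitters' processing notes. The RMA version and chip definition are not given in the sources used here. Per the labels' protocols, cells for polysomes were treated with cycloheximide at 100 µg/ml, extracts were run on a 10 to 50% sucrose gradient, and RNA was amplified with a NuGEN kit. Of 25668 probe sets, 20777 carried 1 symbol, 232 several and 4659 none, and only the first class was used.

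Genes were tested if at least 3 arrays gave a value over the 40th percentile of that array, and 14830 met this. TE was log2 polysomal minus log2 total per culture. Tests used limma 3.58.1 in R 4.3.3, checked on simulated data, with Benjamini-Hochberg adjustment over all kept genes. Transformation and interaction fits had embryo as a block, since the labels name the embryo of each culture. Deviations of an embryo's states from their group means correlated at 0.04, 0.22 and 0.21 (Het) and 0.13, 0.06 and -0.06 (WT) in total RNA, and at 0.06, 0.02 and 0.05 (Het) and -0.12, -0.05 and -0.44 (WT) in polysomal RNA. Genotype fits used the 4 group means. The number of arrays limits the precision.

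The members, the pathway lists and the tests were chosen with earlier results of these data known. Per-culture values were printed for the largest called changes, the smallest p of each genotype comparison and Hspa5, Xbp1 and Serpinh1, and pathway genes were the 2 largest called changes of a list in total RNA. Promoter windows came from RefSeq (GRCm38.p6). Protein C-termini were not analysed here. Alternatives were no filter, array weights, trended and robust variances, quantile normalization, probe set means, the block turned round, leaving out the weakest polysomal arrays and leaving out each embryo.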

Additional observations from a re-analysis of the deposited data

How the results depend on the processing

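The genotype and interaction comparisons called 0 of the 36 genes under every alternative run, the replicate block across genotypes included. The fit with no replicate block changed no other transformation count by over 1.5 times than that on WT polysomes, which was 5 with no replicate block and 1 with it. The counts given here take calls in either direction. With array weights they were 11 in TE (10 lower and 1 higher), 9 on WT polysomes, 1 in WT TE, 22 on Het polysomes and 4 in Het TE. With trended and robust variances they were 8 in TE, 0 on WT polysomes, 7 on Het polysomes and 2 in Het TE, and with quantile normalization 9 in TE, 2 on WT polysomes and 2 in Het TE. Without the cultures of the 2 weakest polysomal arrays, untransformed WT embryo 1 and transformed WT embryo 3, they were 22 on Het polysomes and 8 in Het TE. The WT response in that fit rested on embryo 2 alone, the only WT embryo left with both states. Its WT counts are therefore not given. Leaving out each embryo in turn gave 22 to 27 in total RNA, 8 to 21 on polysomes and 0 to 11 in TE. By genotype it gave 2 to 22 in Het total RNA, 0 to 23 on Het polysomes, 0 to 7 in Het TE, 5 to 18 in WT total RNA, 0 to 11 on WT polysomes and 0 to 1 in WT TE. The cause of these changes was not tested.

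Directions that turned all belonged to values that had not passed. Without the weakest arrays the WT TE difference of Herpud1 was -0.064 and the Ssr1 interaction in total RNA -0.0065, with WT embryo 2 alone behind the WT response in both. In the same setting the median TE difference between genotypes in transformed cells was -0.18 (-0.061 with array weights). The untransformed Eif2ak3 TE difference was 0.037 there, and the untransformed Derl3 polysomal difference 0.0499 (0.042 with array weights). Leaving out each embryo in turn gave, in untransformed cells, genotype medians of -0.036 to 0.0082 in total RNA and differences of -0.24 to 0.0499 for Derl3 and -0.37 to 0.22 for Edem1 on polysomes and of -0.43 to 0.18 for Edem1 and -0.28 to 0.069 for Eif2ak3 in TE. In transformed cells it gave genotype medians of -0.23 to 0.064 on polysomes and -0.18 to 0.21 in TE, and the TE interaction of Edem1 was -0.0095 to 0.51. Over all alternatives run, for the genes called and for those with the smallest p on either side where none was called, 1563 of 1833 values kept their direction and side of the threshold, 258 kept the direction but no longer passed, and 12 turned.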
